A study of Mus musculus with 13 samples.

Results

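ATAC-seq maps DNA that is open to the Tn5 transposase. The open regions described here are those around the 10 genes that make, break down, bind and read out retinoic acid: Aldh1a2 and Aldh1a3 (synthesis), Cyp26a1, Cyp26b1 and Cyp26c1 (breakdown), Rara, Rarb and Rarg (receptors), and Crabp1 and Crabp2 (binding proteins). A region belonged to a gene when its strongest summit lay within 100 kb of the gene body. Of 1357031 regions listed in 13 libraries, 2112 did so, from 121 at Aldh1a2 and at Cyp26c1 to 458 at Rarb, the longest of the genes. Merging the 50000 strongest regions of each of 12 libraries gave 105646 consensus regions, of which 161 lay at these genes. Of the 2112 regions, 1637 overlapped one of the 161 and 475 overlapped none.

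Each library was made from 50000 cells of mouse embryos (B6CBAF1) collected at E12.5. Tissues were the distal forelimb (DFL), the proximal forelimb (PFL) and the forebrain (FB), each from wild-type embryos (wt) and from embryos homozygous for allele 542, with 2 libraries in each of the 6 groups, made from separate pools of embryos. Allele 542 is a single founder line with 1 copy of the distal limb enhancer II1, an HBB promoter and LacZ placed in T-DOM, the regulatory domain on the telomeric side of HoxD on chromosome 2, and none of the 10 genes lies on that chromosome. The 13th library, a wt DFL sample of earlier date processed anew, is used only where it is named.

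Retinoic acid is made from vitamin A by retinaldehyde dehydrogenases and removed by cytochrome P450 enzymes of the CYP26 family, so that a tissue's exposure depends on both. In cells it is carried by CRABP proteins and bound by nuclear receptors, which sit with RXR partners on direct repeats of a short motif. In the limb bud the acid is known mainly from proximal tissue, while Cyp26b1 is known from the distal bud, and Rarb and Cyp26a1 are textbook target genes with such repeats at their promoters.

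In summed region numbers the limb markers followed the tissue labels except for the proximal list, and single genes did not all do so. Over the limb mesenchyme genes Prrx1, Tbx5 and Msx1 together, 7 to 10 strong regions lay within 10 kb in DFL and in PFL libraries and 2 to 3 in FB. Prrx1 (3 to 6 in limb, 1 in FB) and Tbx5 followed the labels, while Msx1 had 1 region in every PFL library and 1 to 2 in FB. The fold over the start of Prrx1 was higher in FB (6.36 to 7.98) than in limb (3.2 to 5.58). For the distal limb genes Hoxa13 and Hoxd13 the summed number was 4 to 5 in DFL, 2 to 4 in PFL and 1 to 3 in FB. The proximal genes Meis1 and Shox2, without Meis2, which lies on the part of chromosome 2 that was not compared, gave 10 to 11 in DFL, 12 in every PFL library and 13 to 19 in FB. Muscle, blood, endothelium and surface ectoderm markers gave 2 to 8 regions in every tissue, and their part in the results below was not tested. In pools of cells, fewer cells with an open region and less opening in each cell cannot be told apart. The libraries listed 85070 to 118297 regions, from an estimated 37.5 to 54.5 M tags (M for mega) in limb and 51.4 to 70.7 M in FB.

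The sequences that carry the comparisons are given first. All are from GRCm38.p6, 5′ to 3′, and capitals mark the hexamers that make up the receptor repeats, searched on both strands. One form searched was AGGTCA, the best known for these receptors. A variant of it with 1 changed base was AGTTCA. The form that opens with 3 guanines was GGGTCA. The remaining form searched was GGTTCA. At a start of Rarb inside the gene, open in every library, chr14:16575506-16575535 holds a direct repeat with 5 bases between. It lies on the minus strand, the coding strand. The promoter of Cyp26a1, open weakly at most, holds one at chr19:37697770-37697799, shown on the plus strand and read on the minus strand.
Rarb start: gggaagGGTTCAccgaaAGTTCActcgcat
Cyp26a1 promoter: taaagaTGAACTttgggTGAACTaatttgt
The Rarb repeat lay at positions -53 to -37 from the RefSeq start and the Cyp26a1 repeat at -32 to -16. Of 32851 RefSeq promoters of 300 bases, 193 (0.588%) held such a repeat with 5, 2 or 1 bases between, and 32 held one with 5. The tables had promoters for 8 of the 10 genes, and Rarb and Cyp26a1 were those with a match.

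Next are 300 bases on the summit of regions that differed between tissues (plus strand), each the strongest of its kind at its gene. The genes shown were a choice, and limb only regions of other genes, such as Rara, are not printed. For DFL only, a region also among the strongest of FB was passed over. The first 3 were open in limb and not among the strong regions of FB: chr9:71242034-71242333 in an intron of Aldh1a2, chr14:16484025-16484324 in an intron of Rarb and chr9:54784052-54784351 between Crabp1 and Ireb2.
Aldh1a2 intron, limb: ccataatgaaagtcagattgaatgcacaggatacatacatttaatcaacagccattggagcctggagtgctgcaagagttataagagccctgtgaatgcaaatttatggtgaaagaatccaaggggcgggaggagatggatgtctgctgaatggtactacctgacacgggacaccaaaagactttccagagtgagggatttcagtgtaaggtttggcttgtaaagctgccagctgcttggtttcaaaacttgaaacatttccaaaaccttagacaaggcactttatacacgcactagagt
Rarb intron, limb: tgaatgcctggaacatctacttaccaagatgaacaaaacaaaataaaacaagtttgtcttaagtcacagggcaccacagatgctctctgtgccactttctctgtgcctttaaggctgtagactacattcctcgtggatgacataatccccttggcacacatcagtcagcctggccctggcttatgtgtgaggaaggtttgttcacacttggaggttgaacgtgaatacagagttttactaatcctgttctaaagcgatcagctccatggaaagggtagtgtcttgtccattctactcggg
Crabp1 downstream, limb: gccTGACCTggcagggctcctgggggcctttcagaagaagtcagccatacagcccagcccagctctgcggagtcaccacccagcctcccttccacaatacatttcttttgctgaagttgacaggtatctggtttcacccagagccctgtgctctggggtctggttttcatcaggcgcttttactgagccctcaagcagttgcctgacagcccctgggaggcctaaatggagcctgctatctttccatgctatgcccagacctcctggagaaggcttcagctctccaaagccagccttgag
A second intron of Rarb, chr14:16742320-16742619, was open in FB.
Rarb intron, forebrain: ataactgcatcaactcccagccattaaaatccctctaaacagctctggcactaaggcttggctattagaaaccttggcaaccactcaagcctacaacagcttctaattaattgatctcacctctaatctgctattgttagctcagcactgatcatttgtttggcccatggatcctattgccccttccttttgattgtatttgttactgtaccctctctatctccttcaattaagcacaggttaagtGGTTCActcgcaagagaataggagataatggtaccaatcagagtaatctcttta
Within the limb, chr14:16874764-16875063, upstream of Rarb, was open in DFL, and chr19:37800322-37800621, downstream of Cyp26a1, in PFL.
Rarb upstream, DFL: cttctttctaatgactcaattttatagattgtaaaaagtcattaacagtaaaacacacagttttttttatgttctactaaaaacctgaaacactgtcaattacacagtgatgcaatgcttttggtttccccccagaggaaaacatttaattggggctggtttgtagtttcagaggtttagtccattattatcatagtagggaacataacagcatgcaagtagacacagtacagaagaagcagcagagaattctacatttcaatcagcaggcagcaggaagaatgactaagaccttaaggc
Cyp26a1 downstream, PFL: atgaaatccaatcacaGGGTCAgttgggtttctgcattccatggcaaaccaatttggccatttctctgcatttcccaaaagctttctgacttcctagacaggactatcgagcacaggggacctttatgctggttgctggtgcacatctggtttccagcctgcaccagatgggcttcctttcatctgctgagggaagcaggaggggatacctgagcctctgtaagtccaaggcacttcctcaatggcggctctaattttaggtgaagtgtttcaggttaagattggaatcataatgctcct
None of these 6 windows held a direct repeat, and 3 of them (Crabp1 downstream, Rarb intron in forebrain, Cyp26a1 downstream) held a single hexamer. Over all 161 windows of 300 bases, 1 (0.621%) held a direct repeat, the one at the Rarb start, against 406 of 105646 (0.384%) over all consensus regions. At least 1 hexamer was in 67 of 161 (41.6%) and in 42.3% of all. A match is a string of letters and no match says only that these letters are not in the window.

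Most of the 161 regions were shared between tissues or variable within them. All 12 libraries had 37 of them among their strongest (23.0%, against 17.4% of all consensus regions), and 27 of the 37 lay within 1 kb of a coding start, mostly of a neighbouring gene. In all, 43 of the 161 lay within 1 kb of a coding start, 12 at a start of the retinoic acid genes themselves and 31 at other genes only. A region was called limb only when it was among the 50000 strongest of all 8 limb libraries and of no FB library. Of the 161, 12 (7.45%) were limb only, where 4.82% of all consensus regions were, and 7 (4.35%) were forebrain only, where 8.8% were. Within the limb, 2 of 143 (1.4%) were DFL only against 3.27% of all, and 4 (2.8%) were PFL only against 2.61%. Of these 25, the start region of Cyp26b1 alone lay within 1 kb of a coding start.

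The 12 limb only regions sat at 5 genes: 4 at Aldh1a2, 3 at Rara, 2 at Rarb, 2 at Crabp1 and 1 at Cyp26b1. Forebrain only regions were 3 at Rara, 2 at Rarb, 1 at Aldh1a2 and 1 at Crabp2. For 6 of the 12 limb only regions no region of any strength was listed in FB, 5 had a weaker FB region whose fold lay below every limb value, and 1, over a start of Cyp26b1, had FB values that overlapped those of limb. Of the 7 forebrain only regions, 3 had no limb region and 4 had a weaker one below every FB value. Fold, here and below, is the peak caller's ratio of tags under the summit plus 1 to the local background plus 1.

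Aldh1a2 encodes the main enzyme of retinoic acid synthesis in the embryo. Of its 9 consensus regions, 4 were limb only and none of these had a listed region in any FB library. The strongest (chr9:71241599-71242678) lay in an intron, 26.4 kb from the start. Its fold in DFL was 10.2 in wt replicate 1, higher still in wt replicate 2, and 7.37 and 9.06 in 542, with a mean of 9.78 ± 2.15 (SD, n = 4). In PFL it was 9.84 and 6.57 in wt and 5.94 and 6.39 in 542, with a mean of 7.18 ± 1.79. The second intronic region (chr9:71276140-71276826), 60.7 kb from the start, had DFL folds of 8.06 and 10.2 in wt and 7.56 and 9.06 in 542. In PFL it had 6.27 and 6.63 in wt and 6.14 and 5.19 in 542, so that every DFL value lay above every PFL value. Its DFL minus PFL difference was 0.46 ± 0.15 (log2, SE; limma, adjusted p = 0.0483 over all regions). It passed the threshold in 5 of 15 alternatives and missed it without any 1 of the 8 libraries (adjusted p of 0.0514 to 0.192), so that this call is not firm.

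The other 2 limb only regions of Aldh1a2 lay beyond its end. The one 122 kb from the start (chr9:71337282-71338035) had folds of 8.5, 9.81, 5.53 and 8.31 in DFL and 5.63, 8.14, 7.13 and 7.39 in PFL, wt values first. For the one 108 kb from the start (chr9:71323307-71323925), wt DFL had 5.35 and 6.48 and wt PFL 4.6 and 5.21, whereas 542 DFL had 9.91 and 7.72 and 542 PFL 9.01 and 10.4. The 542 values lay above these wt values in both limb parts, but the earlier wt DFL library lay within the range of 542. This region was chosen after its values were seen, and it took no part in the 12-library test of genotype because FB had no value.

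**Figure D1:**
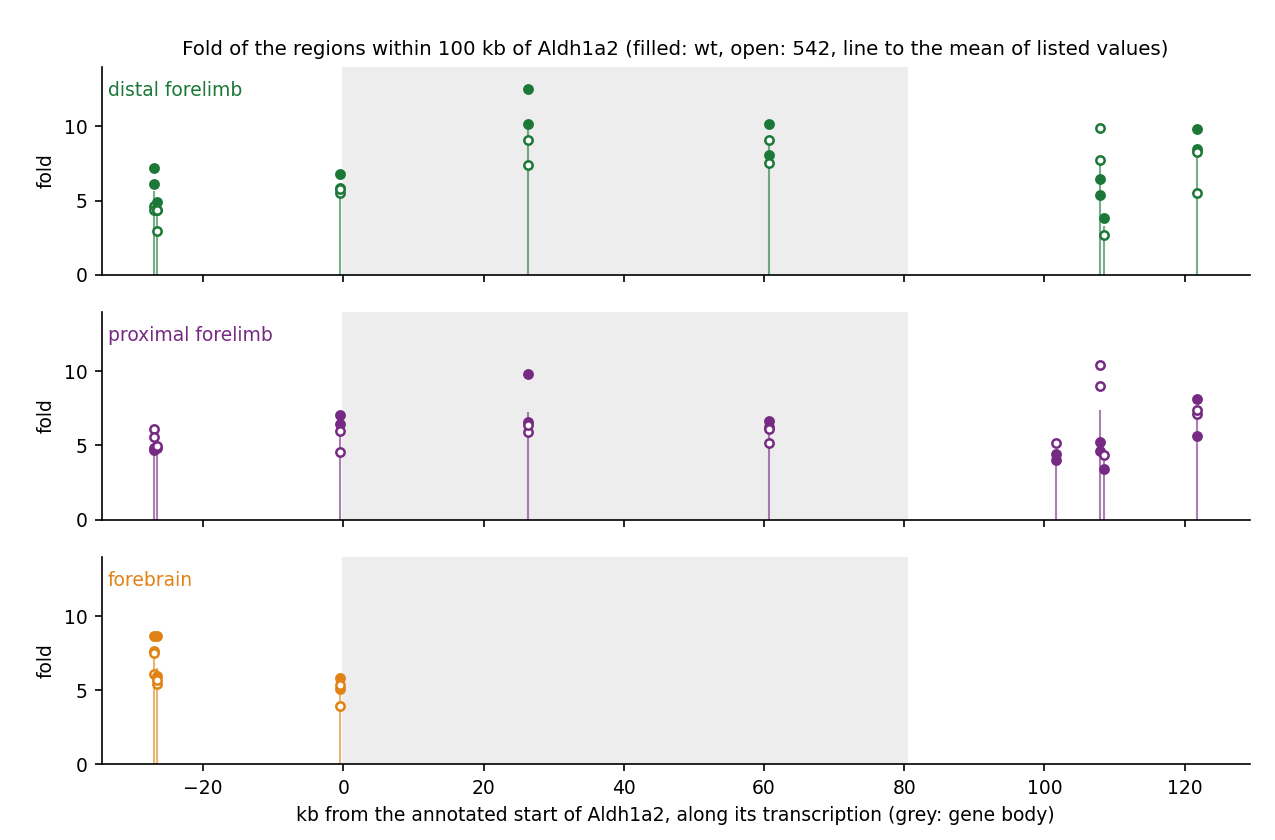
Fold over local background (y axis) of the consensus regions within 100 kb of Aldh1a2 against the distance of their summit from the gene's start in kb (x axis), 1 panel per tissue, with filled points for wt and open points for 542 libraries. FB had points at the start and at the pair of regions upstream of it, and none from the gene body to 122 kb, where both limb parts had 4 regions in all 8 libraries.

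The start of Aldh1a2 (chr9:71215169-71216633) was listed in all 12 libraries. Its fold was 5.48 to 6.8 in DFL, 4.55 to 7.09 in PFL and 3.93 to 5.84 in FB, ranges that overlapped, and the limb minus FB difference was 0.28 (limma, adjusted p = 0.129), which passed with median centring (0.42, adjusted p = 0.0234) and without 542 PFL replicate 1 (0.37, adjusted p = 0.0359). The regions in this window that were higher in FB lay upstream, on the side of Aqp9. The forebrain only region (chr9:71189070-71189376), 26.6 kb before the start, had FB folds of 5.95, 8.65, 5.45 and 5.69, and limb folds of 2.95 to 4.95 in 6 of 8 libraries. Its neighbour, 20115 bp from the start of Aqp9, was lower in limb than in FB by 0.37 ± 0.11 (log2, SE; limma, adjusted p = 0.022), a call lost with median centring (adjusted p = 0.0559) and without wt FB replicate 1, wt FB replicate 2 or 542 FB replicate 2 (0.0523 to 0.0943). The window of Aldh1a2 thus held limb only regions within and beyond the gene. It also held a forebrain only region upstream, which lay nearer to a start of Aqp9 (20532 bp).

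Aldh1a3, a second retinaldehyde dehydrogenase, gave none of the tissue-restricted regions among its 16. Over its start (chr7:66427118-66428242) the fold was 4.79 to 9.28 in DFL, 5.04 to 6.34 in PFL and 4.4 to 7.22 in FB, and no difference between tissues passed the test. Of its 3 regions tested in all 12 libraries, 1 was lower in limb (limb minus FB -0.25 ± 0.07, log2, SE; limma, adjusted p = 0.017), and it lay 1059 bp from a start of the neighbour Lrrk1. In tags under the summit scaled to depth it was 0.13 (adjusted p = 0.365), and without wt FB replicate 1, wt FB replicate 2 or 542 FB replicate 2 the adjusted p was 0.0588 to 0.0625.

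Cyp26b1, which breaks down retinoic acid in the limb bud, had no region listed over its first start in any of 12 libraries. A weak region lay over an internal start (chr6:84588754-84589445), 4.87 kb from the first. DFL folds were 4.77 and 5.81 in wt and 4.86 and 5.1 in 542, against 3.89, 3.25, 3.54 and 3.66 in PFL and 3.69, 3.65, 3.38 and 3.69 in FB. No DFL value overlapped those of the other tissues, yet the DFL minus PFL difference of 0.49 missed the threshold (limma, adjusted p = 0.063), and passed it in depth-scaled tags (adjusted p = 0.0274) and with plain eBayes (0.0285). The limb minus FB difference was 0.20 (adjusted p = 0.195), against 0.43 with median centring (adjusted p = 0.00883) and 1.32 in depth-scaled tags (4.42e-11). The region counted as limb only because all PFL values still entered the 50000 strongest of those libraries, while FB values of the same size did not. An intronic region 3.45 kb into the gene (chr6:84590257-84590645) went the other way, with FB folds of 7.99, 4.6, 5.3 and 5.31 above limb folds of 2.93 to 4.43. Its limb minus FB difference was -0.59 ± 0.14 (log2, SE; limma, adjusted p = 0.00558), but 0.32 in depth-scaled tags (adjusted p = 0.0864), so that its direction depends on the scale.

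Cyp26a1 and Cyp26c1 lie next to each other on chromosome 19, share most of their window, and had few strong regions. At the start of Cyp26a1, where the promoter repeat lies, a region was listed in all DFL and PFL libraries and in 2 of 4 FB libraries. Folds were 2.55 to 4.59, and it was among the 50000 strongest of none. Both FB libraries with it were wt (3.21 and 3.83) and both without it were 542, a split that was not tested. No region was listed over the start of Cyp26c1 in any library. The pair's exon region in Cyp26c1 (chr19:37686962-37687656) was higher in limb, with folds of 3.89 to 6.33 in limb and 2.79 to 4.31 in FB (difference 0.43 ± 0.15, limma, adjusted p = 0.035). The call was lost with the earlier library (adjusted p = 0.188) and without any 1 of 6 libraries (wt DFL 2, 542 DFL 1, wt PFL 1, wt FB 1, wt FB 2 or 542 FB 1, adjusted p of 0.0547 to 0.275). The clearest region in the window of Cyp26a1 was far from it, 103 kb downstream (chr19:37800140-37800633), and 101032 bp from a start of Myof. PFL folds there were 7.24 and 7.24 in wt and 6.14 and 5.79 in 542, DFL folds were 2.93, 4.03, 2.95 and 3.02, and FB had none. It was PFL only, and the DFL minus PFL difference was -1.07 ± 0.16 (log2, SE; limma, adjusted p = 9.81e-04).

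**Figure D2:**
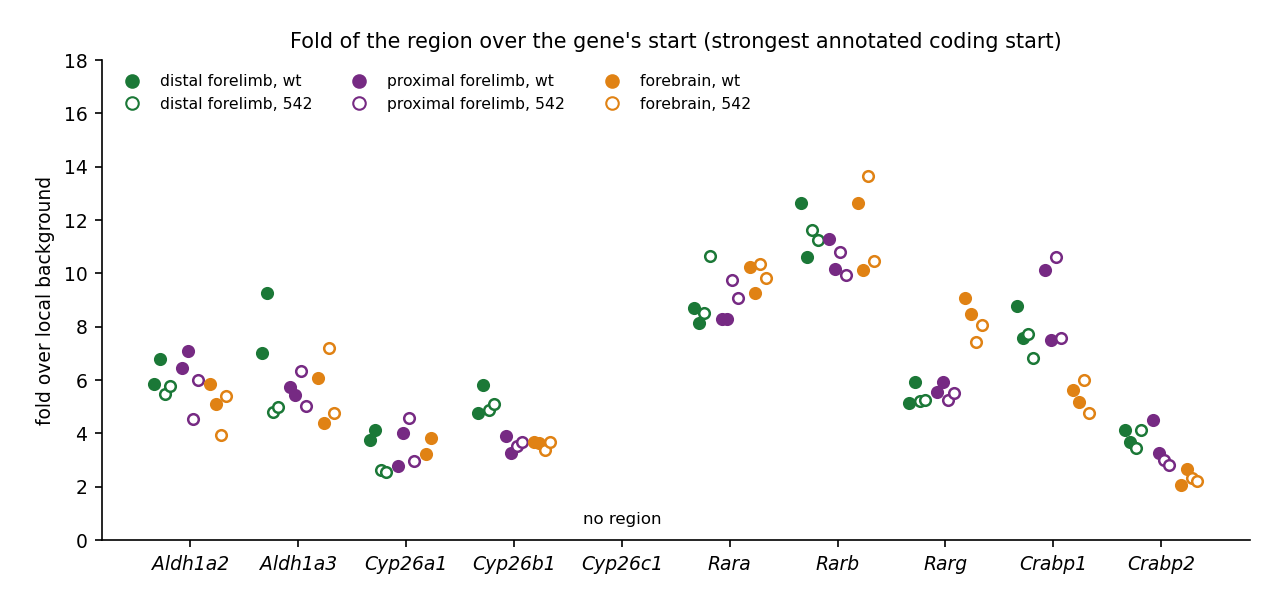
Fold over local background (y axis) of the region over the strongest annotated coding start of each of the 10 genes, 1 point per library, coloured by tissue and filled for wt. The start of Rarb lay between 9.93 and 13.6 in every library, Cyp26c1 had no region, and the DFL points of Cyp26b1 and the FB points of Rarg stood above the other tissues.

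Rarb, a receptor gene that retinoic acid itself induces, held 39 of the 161 regions over its long window. No region was listed over its annotated start (chr14:16819156), from which distances at this gene are given, or over the start at chr14:16819005, in any of 12 libraries. The start inside the gene (chr14:16574810-16576017), 244 kb from the annotated one and with the direct repeat printed above, had overlapping values in the 3 tissues. The fold was 12.6, 10.6, 11.6 and 11.3 in DFL, 11.3, 10.2, 10.8 and 9.93 in PFL, with FB at 12.6, 10.1, 13.6 and 10.4. The limb minus FB difference was 0.10 (limma, adjusted p = 0.409) and the DFL minus PFL difference was 0.07 (adjusted p = 0.682), and the ranges overlapped. The differences lay at other places of the gene.

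A pair of limb only regions in introns of Rarb had the largest limb minus FB differences of all regions tested at these genes. The region chr14:16483609-16484610 lay 335 kb from the annotated start and 58746 bp from a start of Top2b. Folds there were 13.1, 12.1, 11.9 and 10.8 in DFL, 10.8, 9.34, 11 and 9.47 in PFL, while FB stood at 4.9, 4.68, 4.43 and 3.08. The difference was 1.43 ± 0.11 (log2, SE; limma, adjusted p = 7.20e-07). The other region (chr14:16554174-16555541), 264 kb from that start, had 11.5, 10.4, 12.3 and 11.2 in DFL, 9.96, 11.2, 10.2 and 9.32 in PFL, while FB stood at 4.64, 3.26, 4.18 and 4.15, a difference of 1.44 ± 0.11 (adjusted p = 4.70e-07). At both, every limb value was above every FB value. The 2 differences stayed past the threshold under all 19 alternatives, from 1.26 to 3.02.

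Rarb also had 2 forebrain only regions. The one in an intron (chr14:16741561-16742832) had FB folds of 9.23, 7.22, 10.5 and 9.8, with limb regions in 3 of 8 libraries at 2.31 to 3.85. The one 97.4 kb upstream (chr14:16916090-16916793) had FB folds of 5.25, 6.38, 6.33 and 10.2 and no limb region in any of the 8 libraries.

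Within the limb Rarb had regions on both sides. DFL only were chr14:16874380-16875161, 55.8 kb upstream, with folds of 6.45 and 5.78 in wt and 7.37 and 7.35 in 542 and no region in PFL or FB, and chr14:16822181-16823368, 3.62 kb upstream. The latter was at 5.33, 5.75, 7.91 and 5.73 in DFL, at 3.38 and 2.71 in the wt PFL libraries, and higher in FB, at 8.74, 10.7, 8.52 and 8.5. Neither was DFL only once the earlier wt DFL library, with folds of 6.21 and 5.74, was added, since neither was among its 50000 strongest. That library had an estimated 78.0 M tags. PFL only was chr14:16593241-16593875, with 5.31, 4.16, 5.45 and 6.29 in PFL alone. The second PFL only region, chr14:16517498-16518827, had 5.47, 4.96, 6.1 and 4.43 in PFL and 10.2, 9.71, 8.89 and 10.2 in FB, so that DFL was the tissue without it.

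Of the Rarb regions listed in every limb library, one passed the test as higher in PFL and one as higher in DFL. At chr14:16776583-16777410 PFL folds were 10.8, 14.1, 12.6 and 8.94 and DFL folds 7.03, 5.08, 3.87 and 6.42, a difference of -1.12 ± 0.18 (DFL minus PFL, log2, SE; limma, adjusted p = 0.00136). At chr14:16561532-16562457 DFL folds were 6.36, 8.31, 9.34 and 7.18 and PFL folds 3.84, 3.98, 5.41 and 5.12, a difference of 0.71 ± 0.16 (adjusted p = 0.0107). Without replicate 2 of wt DFL the latter had an adjusted p of 0.0567. FB had no region at either.

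**Figure D3:**
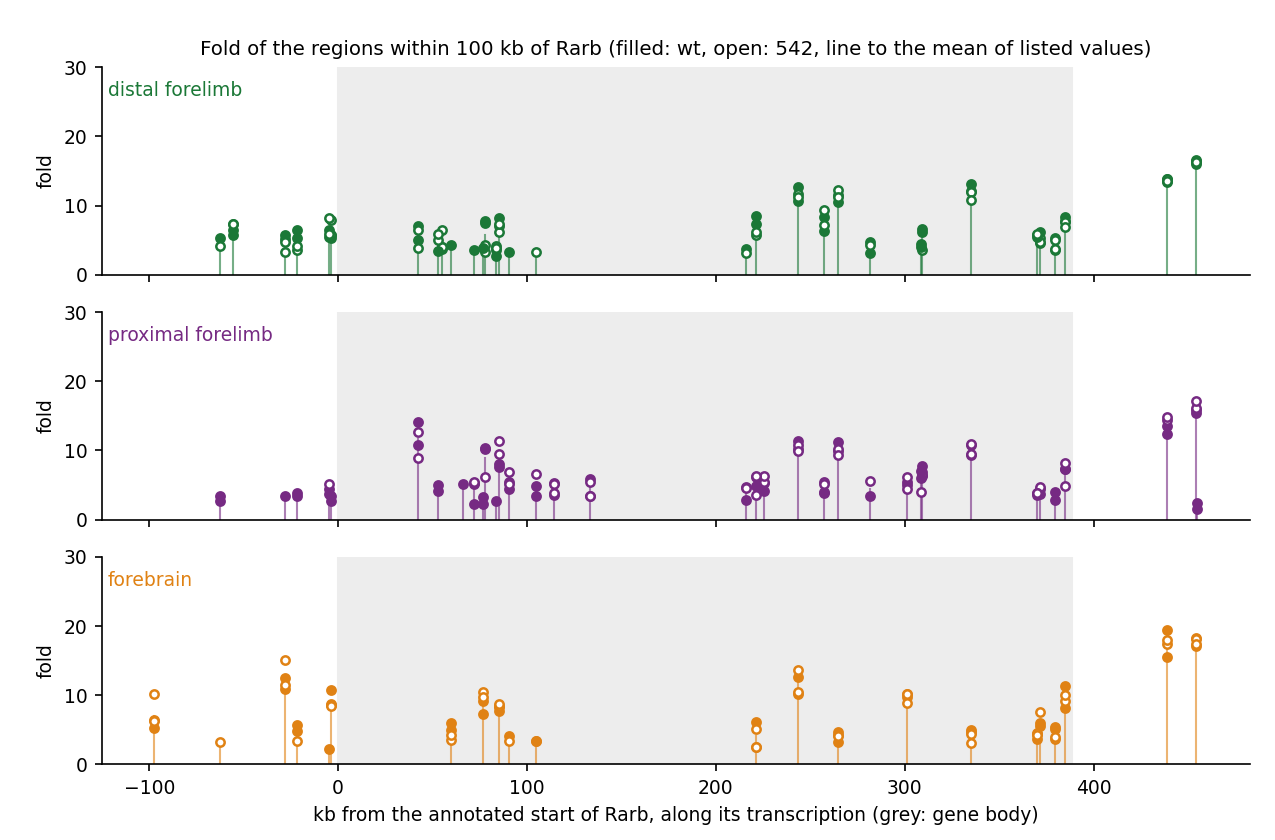
Fold over local background (y axis) of the consensus regions within 100 kb of Rarb against the distance from its annotated start in kb (x axis), 1 panel per tissue, filled points for wt and open points for 542. The start with the direct repeat, at 244 kb, had overlapping points in the 3 panels, the regions at 264 and 335 kb were higher in both limb panels, and those at -97.4 and 76.7 kb were high in FB. The rightmost regions lie at Top2b, the neighbouring gene.

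Rara, a receptor gene active in most cells, was open at its start (chr11:98937192-98938360) at 8.12 to 10.6 in DFL, 8.27 to 9.74 in PFL and 9.25 to 10.4 in FB. The limb minus FB difference was 0.01 (limma, adjusted p = 0.92), but 0.53 in depth-scaled tags (adjusted p = 1.46e-06). Its 23 regions included 3 limb only and 3 forebrain only. The forebrain only regions were all in introns of Rara. At chr11:98941852-98942495, 14.4 kb from the annotated start, FB folds were 4.81, 4.67, 4.26 and 4.4 and limb folds 1.8 to 3.05 (limb minus FB -0.93 ± 0.11, limma, adjusted p = 2.54e-05). At chr11:98954275-98954981 FB folds were 6.88, 6.58, 6.06 and 6.67, with 3.51 to 4.54 in 5 limb libraries. At chr11:98968658-98969984 they were 4.42, 5.56, 4.3 and 4.97, with no limb region.

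The limb only regions of Rara lay mainly beyond the gene. At chr11:99055384-99056501, between Igfbp4 and Tns4, DFL folds were 8.77, 7.05, 9.94 and 8.69, PFL folds 6.33, 5.1, 5.64 and 5.33, and FB folds 2.22, 4.11, 4.18 and 4. The 3 tissues did not overlap. Limb was higher than FB by 0.96 ± 0.16 (log2, SE; limma, adjusted p = 3.46e-04) and DFL was higher than PFL by 0.56 ± 0.15 (adjusted p = 0.0233). The latter missed the threshold without any 1 of 4 libraries: wt DFL 1, 542 DFL 1, wt PFL 2 or 542 PFL 1, with adjusted p of 0.0545 to 0.102. At chr11:99071467-99072544, in an intron of Tns4, limb folds were 9.62 to 13.1 and 2 FB libraries had 2.53 and 2.84. The third, chr11:98936040-98936471, lay 1.42 kb from a start of Rara, with 3.37 to 5.32 in limb and none in FB.

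Rarg, the receptor gene known from skin and cartilage, sits among 13 other coding genes and had no tissue-restricted region among 18. One of its starts (chr15:102246061-102248119) had folds of 9.06, 8.48, 7.42 and 8.07 in FB and 5.15 to 5.94 in the 8 limb libraries. The limb minus FB difference was -0.47 ± 0.11 (log2, SE; limma, adjusted p = 0.00465). In tags under the summit scaled to depth, without the local background, it was 0.86 (adjusted p = 7.27e-10), so that its direction depends on the scale. Its upstream start was listed in all 8 limb libraries at 4.37 to 6.06 and in 3 of 4 FB libraries at 3.89 to 4.99. A region toward Csad (chr15:102167465-102168200) had PFL folds of 7.57, 6.46, 4.55 and 6.59 above DFL folds of 4.1, 2.98, 3.69 and 4.34 (DFL minus PFL -0.76 ± 0.19, limma, adjusted p = 0.0175), and none in FB. Without wt DFL 2, 542 DFL 1, wt PFL 1 or 542 PFL 2 the adjusted p was 0.057 to 0.0851, and 1 PFL value (4.55) lay close to the highest DFL value (4.34).

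Crabp1, a cytoplasmic carrier of retinoic acid, was more open at its start in limb. Folds at chr9:54764157-54765226 were 8.78, 7.58, 7.73 and 6.81 in DFL, against 10.1, 7.51, 10.6 and 7.58 in PFL, and FB had 5.62, 5.18, 5.99 and 4.75. No FB value reached the lowest limb value, and the difference was 0.69 ± 0.13 (log2, SE; limma, adjusted p = 7.14e-04). A cluster of regions downstream of the gene differed among tissues over a short distance. The one 19.5 kb from the start (chr9:54783908-54784598) was limb only, with 7.33, 6.93, 7.61 and 11.4 in DFL, 6.77, 4.74, 9.21 and 8.17 in PFL and none in FB. Another 36.8 kb from the start was limb only too, at 3.98 to 6.54 in limb and 3.55 in 1 FB library.

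Regions of other patterns lay nearby. The one 17.9 kb from the start of Crabp1 (chr9:54782261-54782912) was PFL only, with 4.58, 5.33, 4.8 and 5.59 in PFL against 2.29 and 4.01 in the wt DFL libraries. The one 23.3 kb from the start (chr9:54787704-54788444) had 5.1, 6.58, 6.89 and 4.07 in DFL, 2.95, 3.11, 3.03 and 2.96 in PFL, with FB at 7.94, 8.37, 6.46 and 4.77. PFL was thus the low tissue, with a DFL minus PFL difference of 0.84 ± 0.19 (log2, SE; limma, adjusted p = 0.00987) and a limb minus FB difference of -0.67 ± 0.16 (adjusted p = 0.00543). The limb minus FB difference was -0.16 in depth-scaled tags (adjusted p = 0.496).

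Crabp2, the other carrier, which delivers retinoic acid to the receptors, was weakly open at its start (chr3:87948333-87948789). Folds were 4.12, 3.66, 3.47 and 4.14 in DFL, 4.51, 3.25, 2.99 and 2.81 in PFL, with FB at 1.89, 2.66, 2.31 and 2.23, and limb was higher by 0.57 ± 0.13 (log2, SE; limma, adjusted p = 0.00356; 0.0685 with missing calls at the lowest fold). A region over an exon near its end, at another annotated start, was listed in 4 libraries at 3.46 to 3.88. Its forebrain only region (chr3:87973834-87974886) lay 25.8 kb away in an intron of Nes, a gene of neural progenitors, with 7.74, 7.86, 9.7 and 9.01 in FB and none in the 8 limb libraries.

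Counted per gene, Aldh1a2, Cyp26b1 and Rarb had more strong regions in limb. The number among the 50000 strongest of a library was higher in all 8 limb libraries than in all 4 FB libraries for 3 of the 10 genes, against 7.24% of all coding genes. At Aldh1a2 it was 6, 6, 5 and 5 in DFL, 5, 5, 6 and 7 in PFL, with FB at 3, 3, 2 and 3. For Rarb it was 16 to 20 in DFL, 17 to 19 in PFL and 11 to 14 in FB, and for Cyp26b1 4 to 7, 5 to 9 and 2 to 3. None of the 10 was higher in FB throughout, against 8.69% of all coding genes. None differed between DFL and PFL without overlap, where 2.98% of coding genes were higher in DFL and 3.23% in PFL. These calls depended on the list length: none of the 10 was higher in limb with all deposited regions, and Aldh1a2 alone with a -log10 q of at least 10. With the 20000 strongest none was, and Crabp2 was higher in FB. The share of all coding genes was not computed for these other lists.

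**Figure D4:**
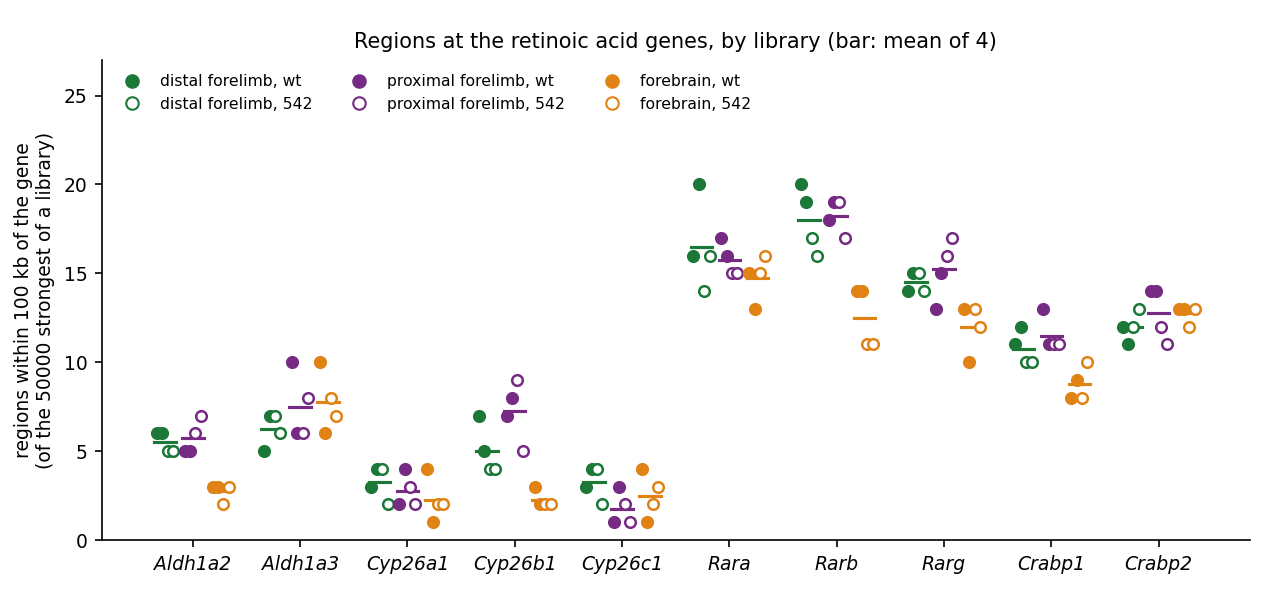
Number of regions within 100 kb of each gene among the 50000 strongest of a library (y axis), 1 point per library, with a bar at the mean of the 4 libraries of a tissue. The FB points of Aldh1a2, Cyp26b1 and Rarb lay below all limb points, while those of the other 7 genes overlapped.

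Levels were compared with limma, a linear model over all regions, on log2 fold after quantile normalization. Its p-values set a difference between groups against the spread among the pooled libraries within them, moderated over all regions. The test could be made for 58 of the 161 regions, those with a value in all 12 libraries, and for the limb alone for 79. Of the 58, 8 were higher in limb (13.8%, against 18.5% of all 26900 regions tested) and 12 were higher in FB (20.7%, against 18.8%). The median difference over the 58 was 0.02, and -0.01 over all regions. With median centring the split was 14 and 10, against 23.7% and 15.9% of all regions under that scaling. In depth-scaled tags it was 18 and 10, against 6734 and 7465 of all 26895 regions. Of the 79, 4 were higher in DFL (5.06%, against 7.14% of all) and 4 in PFL (5.06%, against 6.25%). The regions that passed included starts of neighbours, such as those of Espl1 and Aaas near Rarg, and nearness assigns no region to a gene.

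**Figure D5:**
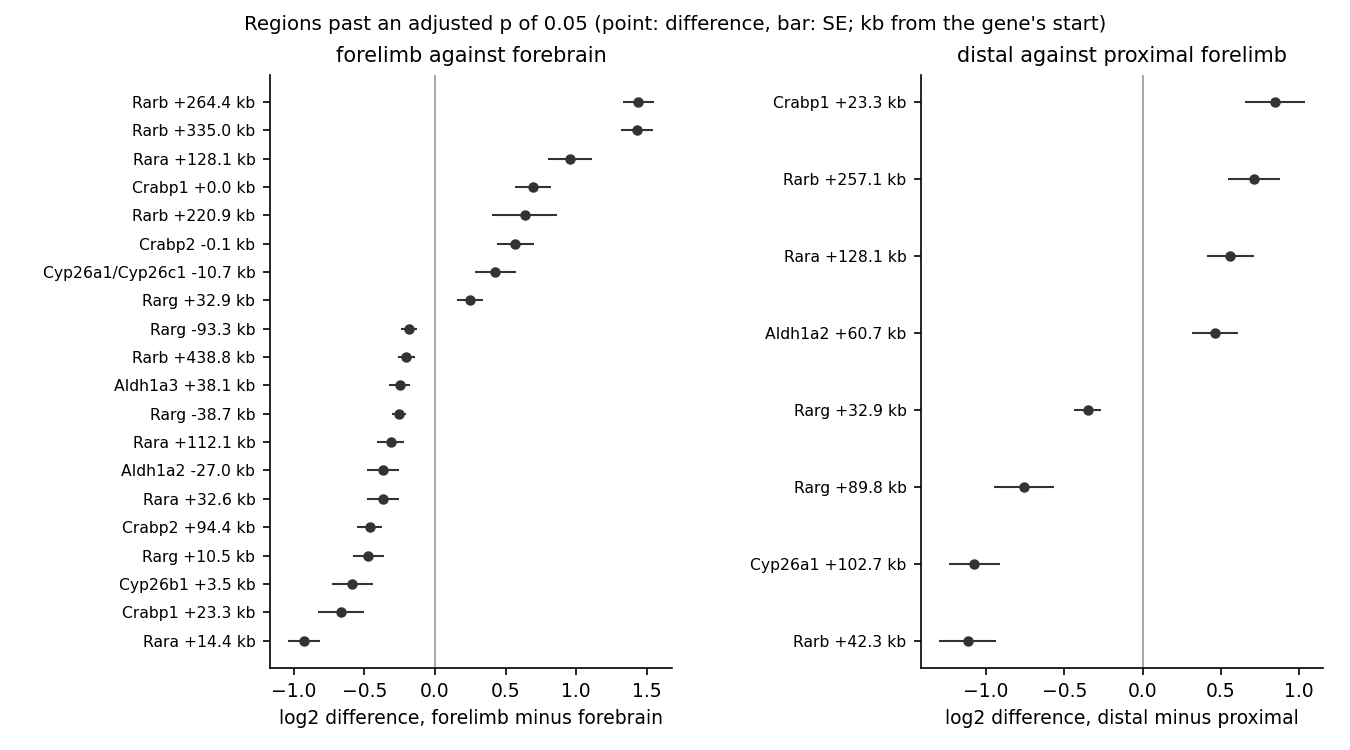
Log2 difference in fold (x axis) of the regions at retinoic acid genes past an adjusted p of 0.05, forelimb minus forebrain on the left and distal minus proximal forelimb on the right, with bars for the SE. Each region is named by its gene and the distance of its summit from the gene's start in kb. The 2 intronic regions of Rarb had the largest limb differences, and the regions of Rarb at 42.3 kb and of Cyp26a1 at 103 kb the largest PFL differences.

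Allele 542 was compared with wt over the 3 tissues together and within each. In the joint test of level none of the 58 regions passed, with 0.257% of all regions higher in 542 and 0.279% higher in wt. At an unadjusted p under 0.05 there were 5 of 58, 1 higher and 4 lower in 542. The share of all regions under that p was not computed here, so this count shows nothing particular to these genes. The lowest adjusted p was 0.0615, at the start of Wdr61 in the window of Crabp1, with a difference of -0.17 ± 0.04 (log2, SE). With missing calls set to each library's lowest fold, that region passed (-0.17, adjusted p = 0.0425), as did 4 others of 160, against 2.9% of all regions in that fit. Regions in the windows of Cyp26c1, Cyp26b1 and Aldh1a2 were then higher in 542 and one in the window of Aldh1a3 was lower, with adjusted p of 0.0175 to 0.0415. The Aldh1a2 region was the one 108 kb from the start, where all FB values were filled in. For a change of the limb minus FB or the DFL minus PFL difference with genotype, 0 of 58 and 0 of 79 regions passed. The lowest adjusted p was 0.417 and 0.581 (limma). Over all 26900 and 40869 regions 0 passed too, so these counts show nothing particular to these genes. At an unadjusted p under 0.05 there were 3 (5.17%, against 7.48% of all regions tested) and 7 (8.86%, against 7.44%).

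By lists, regions in both wt and no 542 library numbered 9 of 113 in DFL (7.96%, against 4.24% of all), 5 of 124 in PFL (4.03%, against 4.41%) and 3 of 91 in FB (3.3%, against 2.97%). Regions in both 542 and no wt library numbered 4 in DFL (3.54%, against 3.35%), 2 in PFL (1.61%, against 3.47%) and 2 in FB (2.2%, against 2.76%). All but 1 of these 25 had a weaker region in the other genotype. With 2 libraries a side the spread within a group rests on 1 difference, and the wt limb libraries had more estimated tags than the 542 limb libraries (44.0 to 54.5 against 37.5 to 41.3 M), whose part in these counts was not tested. A single region recurred, at the start of Igfbp4 in the window of Rara (chr11:99047037-99047952). Its folds were 5.49 and 6.87 in wt and 3.5 and 3.59 in 542 in DFL, and 8.84 and 5.87 in wt and 4.47 and 4.09 in 542 in PFL, with no region in FB.

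The wider pathway was read from 19 further genes of retinol transport and oxidation, RXR partners, corepressors and known targets, of which Meis2 and Tgm2 lie on the part of chromosome 2 that was not compared. The number of regions was higher in limb without overlap for Rdh10, which oxidises retinol to retinaldehyde (6 to 10 in limb, 3 to 4 in FB), Dhrs3, which reverses that step (11 to 14, 4 to 6), and Fabp5, a binding protein (6 to 8, 4 to 5). It was higher in FB for Meis1 (8 to 11 in limb, 15 to 21 in FB) and higher in PFL than DFL for Rxrg (7 to 9, 4 to 6). Of the 17 genes compared, 4, not all named here, were higher in limb (7.24% of all coding genes) and 1 in FB (8.69%). Within the limb 1 was higher in PFL (3.23% of all coding genes) and 0 in DFL (2.98%). Of their 303 consensus regions 18 (5.94%, against 4.82% of all) were limb only and 20 (6.6%, against 8.8%) forebrain only. In the level test 15 of 81 were higher in limb and 16 in FB, against 18.5% and 18.8% of all.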

How the data were processed

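Open chromatin was measured by ATAC-seq in 13 libraries. Per the paper's methods, the authors trimmed adapters with Cutadapt, mapped reads with bowtie2 to mm10 (wt) or to a genome carrying the insertion (542), removed mitochondrial, discordant, low-quality and duplicate reads, and called peaks with MACS2 in each library without a control, with tags extended to 200 bp. Replicates were not pooled. The deposited peak lists give a fold (the ratio of tags plus 1 under the summit to local background plus 1), a -log10 p and -log10 q, a score and a summit. The deposited score, a rescaled q, was not used. Chromosome 2 from 75 Mb on was left out, because the 2 genomes differ there.

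Regions were ranked by the deposited -log10 q within each library, and the 50000 strongest were merged over 12 libraries. Genes were those of GENCODE M21, and a region lay over a start within 500 bp. Tags were recovered from fold and p, and every library gave all of them within 0.05 of a whole number. Depth was estimated from the background. Presence was compared between all libraries of a tissue or genotype. Levels (log2 of the deposited fold, quantile normalized) were tested with limma 3.58.1 in R 4.3.3, with trended and robust variance and Benjamini-Hochberg adjustment over all regions. The fit was also run on simulated data with far fewer changed regions than limb against FB had, so that run is no check of that setting. All tests were two-sided.

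The members and lists were chosen with earlier results of these data known. Named per gene were the strongest region over a start, up to 2 regions of each tissue-restricted kind, the 2 largest changes in each direction and comparison, and genotype regions that recurred in at least 2 tissues. The other regions named were chosen after their values were seen. Alternatives were all regions, the 20000 strongest, a -log10 q of at least 10, 500 bp windows, 50% overlap, merging of all regions, median centring, depth-scaled tags, missing calls at the lowest fold, plain eBayes, a replicate block, the earlier library, and leaving out each library. Results of some marker and pathway genes are not reported here.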

Additional observations from a re-analysis of the deposited data

Results flagged for a closer look

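In 98 groups of 4 libraries, 13 had a library apart from the other 3 by Dixon's criterion, which chance gives in about 5% of groups. At the intronic region of Aldh1a2 26.4 kb from its start, PFL replicate 1 of wt had a fold of 9.84, above the other PFL libraries. At the forebrain only region upstream of Aldh1a2, FB replicate 2 of wt had 8.65. At the PFL only region of Cyp26a1, DFL replicate 2 of wt had 4.03, still below every PFL value. At the Cyp26b1 start, FB replicate 1 of 542 had 3.38. At the limb only region of Rara beyond Igfbp4, FB replicate 1 of wt had 2.22, the low end of a tissue that lay below limb throughout. At the region 3.62 kb upstream of Rarb, 542 DFL replicate 1 had 7.91 and wt FB replicate 2 had 10.7. At the Rarg start wt DFL replicate 2 had 5.92, and at the limb only region 19.5 kb from the Crabp1 start 542 DFL replicate 2 had 11.4. In numbers of strong regions, 542 FB replicate 1 had 2 at Aldh1a2, wt FB replicate 1 had 3 at Cyp26b1, wt PFL replicate 1 had 13 at Crabp1 and 542 FB replicate 1 had 12 at Crabp2. In each of these 4, the count differed from the other 3 libraries, which were equal, by 1 or, at Crabp1, by 2.

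The earlier wt DFL library, which took no part in the comparisons, held 3 consensus regions that were among its own strongest and among those of no other library. They were in the window of Rarb (chr14:16684462-16685431, fold 7.61), at Crabp2 (chr3:87949115-87949899, fold 3.5) and in the window of Aldh1a3 (chr7:66318042-66318733, fold 6.53). Weaker regions were listed there in 3, 5 and 3 other libraries.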

How the results depend on the processing

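Of 178 recomputed counts, 152 stayed within 1.5 times the value reported, and of 1465 recomputed differences at regions named or called, 1378 stayed on their side of the threshold (422 called ones in the same direction, 956 uncalled ones, of which 53 changed sign), 74 fell short of it, 9 passed it and 4 reversed. All 4 reversed in depth-scaled tags, for limb minus FB: the Rarg start (0.86), the Cyp26b1 intron (0.32), the Aldh1a3 window at Lrrk1 (0.13) and a Rara intron (chr11:98959492-98960758, 0.04 against -0.37 in fold). With all deposited regions, DFL only regions numbered 5, PFL only 8 and wt only 47 over the 3 tissues (17 reported), 0 genes had more regions in limb or in FB and 1, Rara, had more in PFL than DFL. With the 20000 strongest there were 3 limb only, 3 forebrain only, 0 DFL only, 1 PFL only, 5 wt only and 2 542 only regions (8 reported) and 1 gene that differed between limb and FB. With a -log10 q of at least 10, wt only regions numbered 32, 542 only 2, and 1 gene differed between limb and FB. With the earlier library DFL only regions numbered 0. The shares of all consensus regions and coding genes were not computed for these lists, nor for lists with a library left out. These counts therefore show nothing particular to these genes. The wt limb libraries had more estimated tags than the 542 limb libraries (44.0 to 54.5 against 37.5 to 41.3 M), whose part in the wt only and 542 only counts was not tested. With missing calls at the lowest fold, 86 of 160 regions differed between limb and FB (68.5% of all regions in that fit), 33 of 149 between DFL and PFL (27.6% of all) and 5 of 160 between genotypes (2.9% of all), and in depth-scaled tags 16 of 79 differed between DFL and PFL (25.1% of all). More regions enter the test when missing calls are filled, and the cause of the other changes was not tested.

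Leaving out each library gave 12 to 14 limb only, 7 to 9 forebrain only, 2 to 4 DFL only (4 without 542 DFL replicate 2), 4 to 6 PFL only, 17 to 24 wt only and 8 to 15 542 only regions (13 and 15 without 542 PFL replicate 1 and 2). Levels differed at 13 to 23 regions between limb and FB (13 without wt FB replicate 1), at 4 to 7 between DFL and PFL (4 and 5 without replicate 2 of wt DFL and of wt PFL) and at 0 between genotypes, and region numbers differed for 3 to 4 genes between limb and FB and for 0 between DFL and PFL. Replicate numbers did not pair the libraries (correlations of -0.0381 to 0.0152). With a replicate block the level counts were 18, 7 and 0, and the calls lost were those of Aldh1a2 at 60.7 kb (adjusted p = 0.0623, limma), Rarb at 221 kb (0.0512) and Rarg in Itgb7 (0.063). A region missing from a list of peaks may be open below the caller's threshold, and 103 of the 161 regions lacked a value in at least 1 of the 12 libraries.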

Other observations

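The region 108 kb from the start of Aldh1a2, chosen after its values were seen, was the one limb only region where every 542 value (7.72 to 10.4) lay above every wt value (4.6 to 6.48) over both limb parts. The earlier wt DFL library had a fold of 8.29 there, above all 4 wt limb values and within the range of 542. That library also had 18.9 and 16.5 at the regions 60.7 and 122 kb from the start, against at most 10.2 and 9.81 in the other DFL libraries, and 15.1 at the Rarb region 42.3 kb from its start, where the other DFL libraries had at most 7.03.

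A further region of Rarg, in an intron 4209 bp from its nearest start (chr15:102239081-102239579) and also chosen after its values were seen, had folds of 10.8, 8.61, 7.88 and 8.14 in FB and of 3.33 to 5.37 in 7 of 8 limb libraries. It took no part in the test of regions with a value in all 12 libraries, because 1 wt DFL library had none.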
